A study of Mus musculus with 10 samples.

Results

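The myogenic bHLH factors are 4 muscle-specific transcription factors encoded by Myod1, Myog, Myf5 and Myf6. Their RNA was followed in C2C12 mouse myoblasts, an established line that fuses into myotubes in low serum, and all 4 were chosen by gene symbol from the 23388 genes listed in all 4 expression tables of the study. The 10 labelled samples were wild-type cells at day 0 (1 sample) and day 6 (1 sample) of differentiation, cells carrying a Huwe1 hairpin at day 0, day 6 and day 8 (2 samples each, each with its own hairpin), cells carrying a non-targeting RNA at day 8 (1 sample), and cells with a USP10 cDNA under the EF1a promoter at day 6 (1 sample). Day 0 cells grew in 10% serum and later cells in 2% horse serum. By the study's methods, myoblasts were infected with hairpin lentivirus while growing and then selected with puromycin, but myotubes, the label of the day 8 cells, were infected on day 4 of differentiation and selected afterwards. The day 8 knockdown thus began in cells already differentiating and is not a later time of the day 0 and day 6 knockdown. In addition, the day 0 and day 6 controls are labelled wild type and carried no control hairpin by their labels. The USP10 cells were a stable line. The tables give 1 FPKM value (fragments per kilobase of transcript, scaled to the mapped fragments of the library) for each condition, with the 2 knockdown samples of a day pooled in 1 column, so there are 8 columns, no replicate error and no test, and every fold change below is a difference between 2 columns.

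The bHLH factors bind the E-box, a short palindromic DNA motif, as dimers with the widely expressed E proteins. MyoD and Myf5 are the determination factors present in proliferating myoblasts, myogenin (Myog) is induced when cells leave the cycle and drives the late muscle genes, and MRF4 (Myf6) is expressed most in mature fibers. Id proteins lack the DNA-binding basic region and sequester E proteins, which holds the myogenic factors back in dividing cells. Huwe1 is a HECT-domain ubiquitin ligase and USP10 is a deubiquitinase. The study asked how the protein level of TBP, the TATA-box binding protein, is set by these enzymes. It also asked how their own levels bear on muscle differentiation.

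The reagents that set the Huwe1 level were 4 hairpins, and their target sequences are given here because the day 8 cells carried, by the labels, other hairpins than the cells of the earlier days. The study's methods name the day 8 pair alone, for myoblasts and myotubes alike, so the labels and the methods differ for day 0 and day 6. Each is written 5′ to 3′ in lower case, as the labels give it.
Hairpin 1, day 0 and day 6: gggaacctgtgattcgaga
Hairpin 2, day 0 and day 6: gagaagaggacaactagta
Hairpin 1, day 8: gcactcttcataactcacttt
Hairpin 2, day 8: gcactgctcatcaaagatgtt
All 4 matched GENCODE transcripts of Huwe1 and of no other mouse gene. In build GRCm38 the first lies at chrX:151883185-151883203, in the coding part of exon 32 of 83. The second crosses the junction of exons 8 and 9 between chrX:151852544 and 151853408, and the fourth the junction of exons 19 and 20 between chrX:151862387 and 151862654. The third lies at chrX:151934876-151934896, in the 3′ untranslated part of exon 83. The longest run that any of them shared with a transcript of the 4 factors was 9 bases.

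All 4 factor genes have 3 exons in GENCODE, and no other annotated gene overlaps them. The tables place Myod1 at chr7:46376474-46379092 and Myog at chr1:134290004-134292548, both on the plus strand. Myf5 at chr10:107482908-107486134 and Myf6 at chr10:107492860-107494729 lie side by side on the minus strand, 6725 bases apart. Of the 4 factors, a RefSeq (GRCm38.p6) promoter was matched for Myog and Myf5 alone. Both are printed here up to the first annotated transcript base, with an E-box (CANNTG, N any base) and a TTTAAA element in capitals.
Myog, chr1:134289754-134289988, plus strand: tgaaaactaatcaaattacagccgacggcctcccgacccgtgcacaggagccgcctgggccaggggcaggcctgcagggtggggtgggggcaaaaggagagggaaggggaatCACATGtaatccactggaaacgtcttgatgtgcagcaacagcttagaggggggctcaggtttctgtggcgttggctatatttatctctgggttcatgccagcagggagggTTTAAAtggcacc
Myf5, chr10:107486135-107486384, minus strand: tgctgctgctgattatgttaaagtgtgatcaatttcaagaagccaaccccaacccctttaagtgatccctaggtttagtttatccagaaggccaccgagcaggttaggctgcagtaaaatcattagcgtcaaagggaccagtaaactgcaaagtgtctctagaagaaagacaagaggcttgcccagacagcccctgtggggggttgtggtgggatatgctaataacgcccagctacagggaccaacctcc
The Myog promoter held the E-box CACATG from 138 to 133 bases before the RefSeq start and TTTAAA from 28 to 23 bases before it. Another E-box, CAGTTG, lay from 12 to 7 bases before that start, in the last 15 bases before it, which are not printed because GENCODE already counts them as transcript. The Myf5 promoter held neither CANNTG nor TTTAAA nor TATAAA in its 250 bases. Read on both strands, CANNTG occurred in 66.2% of the 32851 promoters over the 250 bases before each RefSeq start, TTTAAA in 12.1% and TATAAA in 12.4%. CAGCTG (13.0% of promoters), CACCTG (17.2%) and the strict MEF2 consensus (2.9%) were not matched in those bases of Myog or Myf5. The printed Myog bases do hold ctatatttat, which departs from that consensus in its last base alone. These are matches of letters, and binding was not measured.

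Huwe1 RNA was lower in every knockdown column, at 15.2 FPKM against 38.3 in the control at day 0, 21.9 against 35.1 at day 6 and 33.0 against 55.4 at day 8. These are decreases of 2.52-fold, 1.61-fold and 1.68-fold, so only the first passed 2-fold, and the knockdown was partial at all 3 times. In the USP10 table Huwe1 was at 44.7 FPKM in the control and 41.0 in the USP10 cells. Usp10 RNA was 10.3 FPKM in that control and 38.3 in the USP10 cells, a 3.70-fold increase. In the controls of the Huwe1 tables Usp10 was 5.18-fold lower at day 6 (13.2 FPKM) than at day 0 (68.5 FPKM). The level of the USP10 cells lay between these 2 control levels, across tables that were normalized separately. The Huwe1 knockdown at day 6 also had more Usp10 RNA than its control, 35.4 against 13.2 FPKM (2.68-fold), while the pairs at day 0 (control 68.5, knockdown 64.2) and day 8 (14.5 and 13.1) were close. At day 6 the knockdown therefore differed from its control in both genes, and their parts in the values of the factors cannot be told apart.

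Depth differed between the columns. The steps between the lowest FPKM values of genes with a single transcript put the 5 columns that hold 1 library at 7820000 fragments (the control of the USP10 table) to 30000000 (the control at day 6); the pooled columns could not be estimated. The tables name the same library for both day 6 controls, yet these columns differ in depth and in values. Across 11459 genes with at least 1 FPKM in either, 19.9% differed by at least 2-fold, and the robust SD of their log2 ratio was 0.63, or 1.55-fold. That figure, 1 SD over all genes, is used below as the spread between 2 control columns, and single genes such as Myod1 and Myog differed by more. Cells of all 8 columns expressed the muscle-lineage markers Des (173 to 1769 FPKM), Cdh15 (30.3 to 231 FPKM) and Itga7 (46.8 to 384 FPKM). Of 8 markers of other cell types, Ptprc and Alb stayed below 0.02 FPKM, while Tubb3 reached 61.8, Cdh5 13.5, Cd68 4.65 and Krt8 1.75 FPKM in a control column.

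**Figure D1:**
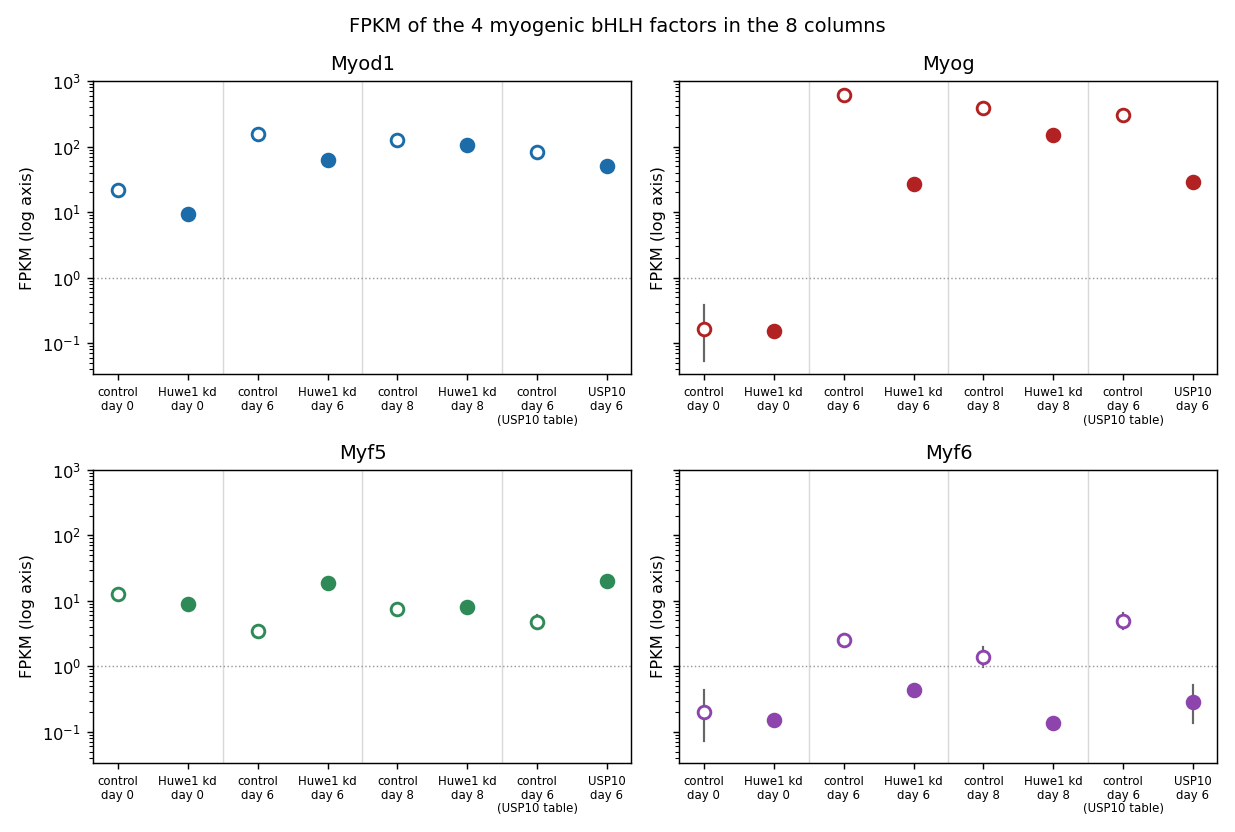
FPKM of Myod1, Myog, Myf5 and Myf6 (1 panel each, log axis) in the 8 columns, with open points for controls, filled points for Huwe1 knockdown (kd) or USP10 cells, and grey lines for the 95% counting interval where a column holds 1 library; the dotted line is at 1 FPKM. Myog spans 0.153 to 619 FPKM and Myf5 only 3.51 to 20.2 FPKM.

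In control myoblasts at day 0, Myod1 stood at 21.7 FPKM and Myf5 at 12.5 FPKM, while Myf6 at 0.2003 FPKM and Myog at 0.164 FPKM rested on about 6 and 5 fragments. The levels of Myog and Myf6 could not be ordered at this depth, since their 95% counting intervals, 0.0532 to 0.382 and 0.0735 to 0.436 FPKM, overlapped almost fully. Myod1 lay above 64.6% and Myf5 above 48.4% of the genes that reached 1 FPKM. Proliferating cells thus held the RNA of both determination factors and very little of the other two.

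By day 6 the control had 619 FPKM of Myog, the highest of the 4 and above 99.0% of expressed genes. Myod1 was at 155 FPKM, Myf5 at 3.51 FPKM and Myf6 at 2.51 FPKM. Set against day 0, the Myog value was 3775 times higher, with a counting interval of 1617 to 11627 that comes from the few day 0 fragments. Myf6 was 12.5 times higher (interval 5.54 to 35.0) and Myod1 7.12 times (6.64 to 7.63). Myf5 was 3.57-fold lower (3.05 to 4.18). Intervals cover counting error only, and these days come from tables that were normalized separately, so the folds describe levels. Among all expressed genes, 21.5% rose past 2-fold and 23.2% fell past it over the same interval. The median log2 ratio of all these genes was -0.05, whereas that of 16 housekeeping genes was -0.99. On the housekeeping scale the log2 ratio of Myf5 was -0.84 instead of -1.83, below 2-fold, while Myog, Myf6 and Myod1 were all further above day 0. With samples at day 0 and day 6 and none between, the data show the sizes of these changes but not which factor moved first.

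Between day 6 and day 8 the control values changed less. Myog went from 619 to 392 FPKM, Myod1 from 155 to 127 FPKM and Myf6 from 2.51 to 1.41 FPKM, decreases of 1.58-fold, 1.22-fold and 1.78-fold. Myf5 went from 3.51 to 7.36 FPKM, a 2.09-fold increase, where 13.8% of all genes were at least as far up as 2-fold and 5.81% as far down. The day 8 control was labelled differently (non-targeting RNA against wild type), and all 7 proliferation markers were higher in it than in the day 6 control, with a sum of 263 against 63.8 FPKM. Mki67, a marker of cycling cells, was at 0.629 FPKM on day 6 and 46.7 FPKM on day 8. The part of these differences in the factor levels was not tested.

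The other day 6 control, that of the USP10 table, had 83.5 FPKM of Myod1, 305 of Myog, 4.79 of Myf5 and 4.93 of Myf6. Against the day 6 control of the Huwe1 table, Myod1 was 1.85-fold and Myog 2.03-fold lower, and Myf5 was 1.36-fold and Myf6 1.96-fold higher. The counting intervals of these 4 ratios (1.75 to 1.97, 1.96 to 2.10, 1.04 to 1.77 and 1.36 to 2.80) all lay above 1. Of all genes, 8.66% were at least 2-fold lower in the second control and 11.2% higher, so the shift of Myog was among the sizes that separate these control columns. The ratio of Myog to Myod1, which does not depend on the scale of a column, was nearly the same in both, 3.997 and 3.65. Other such ratios differed more, Myf5 to Myod1 by 2.53-fold and Myog to Myf5 by 2.77-fold. Those of Myf6 to Myog and of Myf6 to Myf5 differed by 3.99-fold and 1.44-fold. The order of Myf5 and Myf6 differed between the 2 controls: Myf5 was the higher in the first, and the second had them level.

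At day 0 the Huwe1 knockdown had 9.30 FPKM of Myod1 against 21.7 in the control, 2.34-fold lower. Myf5 was at 8.79 against 12.5 FPKM, a log2 ratio of -0.51. Myog (0.153 against 0.164 FPKM) and Myf6 (0.154 against 0.2003 FPKM) did not reach 1 FPKM in either column, so 2 of the 4 factors passed the minimum and 1 of them was at least 2-fold lower. Of 10874 genes in this comparison, 1.69% passed 2-fold downward and 1.90% upward, and 1.01% had a ratio as low as that of Myod1. The lower Myod1 value was therefore in the tail of a comparison in which few genes differed.

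At day 6 all 4 factors passed the minimum and all 4 differed by at least 2-fold, 3 of them lower and 1 higher, where 13.4% of 11695 genes passed 2-fold downward and 17.6% upward. Myog was at 27.1 FPKM in the knockdown against 619 in the control, 22.8-fold lower, and 1.49% of genes had a ratio as low. Myf6, with 0.433 against 2.51 FPKM, was 5.68-fold lower. It passed the minimum through the control alone, so its place in the count of lower factors rests on the control being the higher column. Myod1, with 62.7 against 155 FPKM, was 2.47-fold lower, a size that 9.85% of genes reached. Myf5 went the other way, with 18.5 FPKM in the knockdown against 3.51 in the control, 5.25-fold higher, and 6.73% of genes had a ratio as high. Against the control column of the USP10 table, the Myod1 decrease shrank to a log2 ratio of -0.41 and no longer reached 2-fold, while Myog (-3.49), Myf6 (-3.48) and Myf5 (1.95) still did.

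At day 8 Myog and Myf6 were at least 2-fold lower and no factor was 2-fold higher, beside 10.0% of 11755 genes lower and 7.89% higher. Myog was at 148 FPKM in the knockdown and 392 in the control, 2.65-fold lower. Myf6 was at 0.135 against 1.41 FPKM, 9.80-fold lower, where the control value rests on about 32 fragments and alone passed the minimum. Myod1 (107 against 127 FPKM) and Myf5 (8.14 against 7.36 FPKM) differed by 1.19-fold and 1.11-fold, less than the 1.55-fold spread between the day 6 controls. In the knockdown cells themselves, Myog rose 166-fold, Myod1 6.73-fold and Myf5 2.10-fold from day 0 to day 6, with 0.01 FPKM added. On that measure Myog in the controls rose 3558-fold. Of all genes in the knockdown cells, 19.1% went up and 16.9% down by 2-fold. Thus Myf5, which was lower at day 6 than at day 0 in the controls, was higher in the knockdown cells. The day 8 knockdown column had 5.44-fold more Myog and 2.27-fold less Myf5 than the day 6 one, beside 14.9% of genes up and 12.8% down. Those columns come from different hairpins and separate tables, and the day 8 cells were infected after differentiation had begun, so day, hairpin and time of infection cannot be told apart. The proliferation markers, low in the day 8 knockdown (60.1 FPKM in sum) and high in its control (263 FPKM), moved with this comparison, 6 of 7 being at least 2-fold lower; their part in the factor values was not tested.

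In the USP10 cells at day 6, Myog was at 28.8 FPKM against 305 in the control of the same table, 10.6-fold lower, with a counting interval of 9.90 to 11.3. Myf6 was at 0.283 against 4.93 FPKM, 16.8-fold lower, on about 10 and 49 fragments, and passed the minimum through the control alone. With nothing added to the FPKM it was 17.4-fold lower, with an interval of 8.70 to 38.5. Myf5 was at 20.2 against 4.79 FPKM, 4.21-fold higher (3.35 to 5.37). Myod1 was at 50.4 against 83.5 FPKM, 1.66-fold lower (1.55 to 1.77), short of 2-fold and less than the 1.85-fold by which Myod1 itself differed between the day 6 controls. Thus 2 of 4 factors passed 2-fold downward and 1 upward, beside 10.0% and 9.70% of 11482 genes, and 2.09% of genes had a ratio as low as that of Myog. Against the day 6 control of the Huwe1 table, the log2 ratio of Myod1 became -1.62 and thus passed 2-fold, with Myog at -4.42, Myf5 at 2.52 and Myf6 at -3.10.

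**Figure D2:**
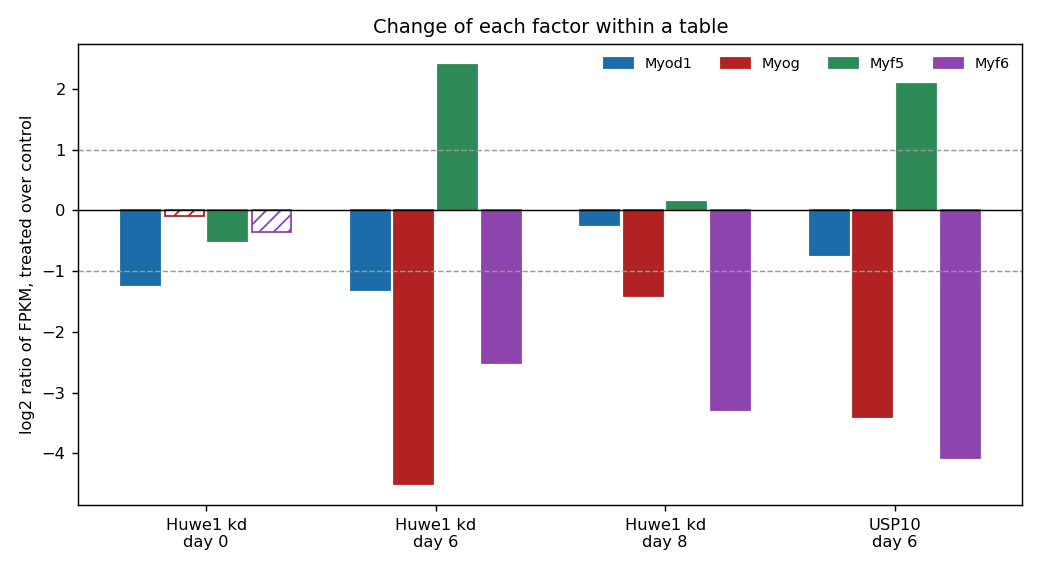
Log2 ratio of treated to control FPKM (0.01 added to each) for the 4 factors in the 4 tables; bars start at 0, dashed lines mark 2-fold, and hatched bars are factors below 1 FPKM in both columns. Myog and Myf6 are below the lower line in the day 6, day 8 and USP10 comparisons, and Myf5 is above the upper line at day 6 and in the USP10 cells.

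The 2 treated day 6 columns held similar levels of all 4 factors although one had a Huwe1 hairpin and the other a USP10 cDNA. The knockdown had 62.7 FPKM of Myod1, 27.1 of Myog, 18.5 of Myf5 and 0.433 of Myf6, and the USP10 cells had 50.4, 28.8, 20.2 and 0.283 FPKM in that order. The larger of each pair exceeded the smaller by 1.24, 1.06, 1.09 and 1.53 times, all within the 1.55-fold spread between the day 6 controls. The Myf6 value of the USP10 cells rests on about 10 fragments (counting interval 0.136 to 0.521 FPKM). The share of all genes as close between these columns is not given here, so the likeness is not shown to be particular to the factors. The tables were normalized separately. Their headers name the same control library, although the control columns differ in depth and in values. The 2 comparisons may therefore not be independent, and this could not be settled.

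Ordered over the 8 columns, Myod1 had 2 of 7 steps beyond the control spread. The 6 columns of day 6 and day 8 ran from 155 down to 50.4 FPKM in steps of at most 1.33-fold, none beyond that spread. A 2.32-fold step to the day 0 control and a 2.34-fold step to the day 0 knockdown followed. Small steps do not make the 6 columns 1 level, since the day 6 knockdown was 2.47-fold below its control. Myog had 4 of 7 steps beyond the spread, of which the first, 1.58-fold, was smaller than its 2.03-fold difference between the day 6 controls, with the 3 later controls (305 to 619 FPKM) at the top, the day 8 knockdown at 148 FPKM, the 2 treated day 6 columns at 28.8 and 27.1 FPKM, and both day 0 columns below 0.2 FPKM. Myf5 had no step beyond the spread, and its order ran from the USP10 cells at 20.2 and the day 6 knockdown at 18.5 FPKM through the day 0 and day 8 columns to the 2 day 6 controls at the bottom. Myf6 was above 1 FPKM only in the 3 later controls, at 4.93, 2.51 and 1.41 FPKM, and its 5 other columns lay between 0.135 and 0.433 FPKM. Of its 3 steps beyond the spread, 1 was that between the day 6 controls themselves, 1.97-fold.

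Shares of the summed FPKM of the 4 factors show the same columns free of the scale of each table. In control myoblasts Myod1 made up 62.8% and Myf5 36.2% of a sum of 34.6 FPKM, and in the day 0 knockdown 50.5% and 47.8% of 18.4 FPKM. Counted as fragments, Myf5 with 50.8% stood above Myod1 with 48.0% in that knockdown, so their order there depended on the unit. Myog made up 79.4% of 779 FPKM in the day 6 control, 76.6% of 398 FPKM in the other day 6 control and 74.2% of 528 FPKM in the day 8 control. In the day 6 knockdown it made up 24.96% of 109 FPKM, with Myod1 at 57.6% and Myf5 at 17.02%, and in the USP10 cells 28.9% of 99.6 FPKM, with Myod1 at 50.5% and Myf5 at 20.3%. The day 8 knockdown lay between these groups, with Myog at 56.1% and Myod1 at 40.7% of 263 FPKM. The largest difference of a share between the 2 day 6 controls was 2.79 percentage points.

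**Figure D3:**
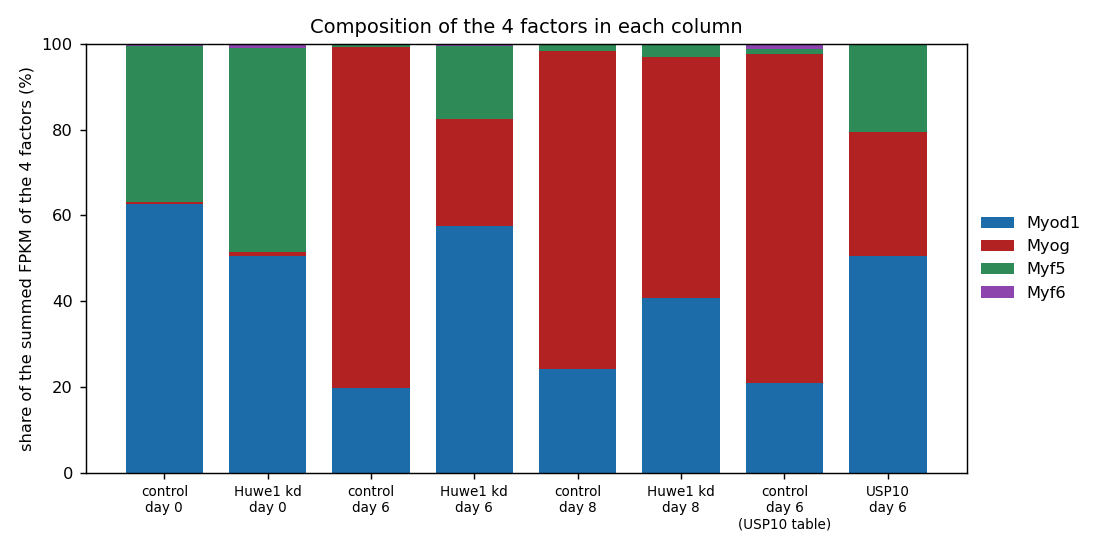
Share (%) of each factor in the summed FPKM of the 4 factors, 1 stacked bar per column. Myog takes 74.2% to 79.4% in the later controls, 56.1% in the day 8 knockdown and 24.96% and 28.9% in the day 6 knockdown and the USP10 cells.

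The ratio of Myog to Myod1 went from 3.997 in the day 6 control to 0.433 in the knockdown, a 9.23-fold decrease, and from 3.65 to 0.572 with USP10, a 6.38-fold decrease. At day 8 it was 3.08 in the control and 1.38 in the knockdown, 2.24-fold lower. Myod1 RNA was thus lower by less than Myog RNA in all 3 comparisons. Between the day 6 controls the ratio of Myf5 to Myod1 differed by 2.53-fold. It went from 0.0227 to 0.295 in the day 6 knockdown and from 0.0574 to 0.401 with USP10, increases of 13.0-fold and 6.99-fold. For the neighbouring genes Myf6 and Myf5, the ratio went from 0.713 to 0.0234 and from 1.03 to 0.0140 in the same comparisons, 30.5-fold and 73.3-fold lower, so that 2 genes lying 6725 bases apart moved in opposite directions.

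Genes around the factors were taken from 11 lists, described by their counts and without a test, to be read beside the shares of all genes past 2-fold, which were 1.69% lower and 1.90% higher at day 0, 13.4% and 17.6% at day 6, 10.0% and 7.89% at day 8, and 10.0% and 9.70% with USP10. The E proteins, the dimer partners of the myogenic factors, are encoded by Tcf3, Tcf4 and Tcf12, and none of the 3 differed by 2-fold in any of the 4 comparisons. Tcf3 had the furthest ratio of them, 14.7 FPKM in the day 6 knockdown against 9.20 in the control, 0.68 on the log2 scale. Tcf12, the most abundant, went from 44.2 to 36.0 FPKM at day 0, from 45.8 to 42.5 at day 6, from 62.4 to 64.7 at day 8 and from 59.4 to 50.8 with USP10. Tcf4 had log2 ratios of -0.34, -0.28, 0.19 and -0.60 in that order, and Tcf3 had -0.24, 0.68, -0.18 and 0.25.

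Of the 13 inhibitors of bHLH factors, 9 passed the minimum at day 0 and none differed by 2-fold. At day 6, 6 of 11 were at least 2-fold lower in the knockdown and 2 higher, with a median log2 ratio of -1.15 against -0.01 for all genes. Id1 was at 5.40 against 17.3 FPKM, Id2 at 1.65 against 10.6 FPKM and Id3 at 11.2 against 24.9 FPKM, all lower. At day 8 the Id genes were higher in the knockdown, with Id1 at 52.5 against 26.2 FPKM, Id2 at 22.0 against 14.5 FPKM and Id3 at 127 against 47.2 FPKM. With USP10 they had log2 ratios of -0.40, -0.63 and -0.73, none 2-fold, and at day 0 ratios of 0.28, 0.69 and -0.10; Id4 was below 0.14 FPKM throughout. The inhibitors that were higher at day 6 were Twist2 (0.0275 to 3.96 FPKM) and Msc (0.0603 to 5.28 FPKM), which encode bHLH repressors. Both were also higher with USP10, from 1.90 to 5.55 FPKM and from 0.155 to 5.43 FPKM. The largest decreases were those of Mdfi at day 6 (2.23 to 0.0831 FPKM) and Heyl with USP10 (2.00 to 0.0684 FPKM). With USP10, 1 of 10 inhibitors was lower, near the 10.0% of all genes, and 2 were higher, and at day 8, 3 of 11 were lower, namely Msc (2.58 to 0.618 FPKM), Mdfi (2.85 to 1.27 FPKM) and Hey1 (22.2 to 10.1 FPKM), and 2 higher, Id1 and Id3.

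Another list held 14 genes named as upstream regulators of the factors. In the day 6 knockdown 5 of 10 expressed ones were at least 2-fold lower, beside 13.4% of all genes. With USP10, 3 of 9 were, beside 10.0% of all genes, and none was higher in either comparison. In the controls 6 of 10 were at least 2-fold higher at day 6 than at day 0, beside 21.5% of all genes. Whether they act before or after the factors in these cells was not tested. Pax7, which marks satellite cells and can activate Myf5, went from 7.54 to 0.0438 FPKM with the day 6 knockdown and from 8.27 to 0.0808 FPKM with USP10. Pax7 was also at or near 0 in both day 0 columns (0 and 0.0095 FPKM), and at 24.7 and 36.7 FPKM in the day 8 control and knockdown. The 4 columns with under 0.1 FPKM of Pax7 were those with the 4 highest Myf5 levels, a pattern noticed after the values were seen. It rests on a small step, since Myf5 in the day 0 knockdown (8.79 FPKM) was only 1.08-fold above the day 8 knockdown (8.14 FPKM). That step is within the spread between the day 6 controls. Tead4 (42.6 to 4.10 FPKM and 16.6 to 2.66 FPKM) and Eya4 (43.3 to 5.12 FPKM and 42.7 to 5.14 FPKM) were lower in both, and Six4 (10.7 to 3.62 FPKM) and Pitx3 (1.30 to 0.0253 FPKM) were 2-fold lower at day 6 of Huwe1 knockdown. At day 8, 1 of 10 was lower, Tead4 (31.8 to 7.44 FPKM), and 1 higher, Eya1 (3.56 to 10.5 FPKM), shares close to those of all genes. At day 0, Eya4 (2.54 to 5.37 FPKM) was the only one of 8 to differ by 2-fold.

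Mef2c, which encodes a partner of the myogenic factors and is itself one of their targets, was lower in all 4 comparisons. It went from 2.59 to 1.33 FPKM at day 0, short of 2-fold, from 97.7 to 10.3 FPKM at day 6, from 48.6 to 3.99 FPKM at day 8 and from 50.0 to 3.69 FPKM with USP10. Mef2a was 2-fold lower at day 6 (224 to 87.1 FPKM) and day 8 (129 to 49.7 FPKM), and Mef2b with USP10 (log2 ratio -1.17, at 0.653 FPKM in the USP10 cells). In this list of 6 MEF2 and SRF genes, 2 of 4 expressed genes were thus lower at day 6 and at day 8, 2 of 5 with USP10 and 0 of 4 at day 0, and none was higher. Of 16 other cofactors, the same 2, Csrp3 and Rbm24, were at least 2-fold lower in the day 6, day 8 and USP10 comparisons, and 0 of 14 at day 0. These counts are near the shares of all genes that were lower (13.4%, 10.0% and 10.0%). Csrp3, a muscle LIM protein that binds MyoD, went from 369 to 20.8 FPKM, from 130 to 18.8 FPKM and from 253 to 26.2 FPKM. Rbm24, an RNA-binding protein of muscle, went from 130 to 1.505 FPKM, from 70.1 to 33.4 FPKM and from 46.2 to 0.610 FPKM.

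Target genes of the factors in muscle, 39 on the list, include most of the contractile apparatus. In the day 6 knockdown 32 of 37 were at least 2-fold lower and 0 higher, with a median log2 ratio of -2.42 against -0.01 for all genes. At day 8, 27 of 38 were lower and 1 higher (median -1.93, all genes 0.00), and with USP10, 24 of 37 were lower and 0 higher (median -1.79, all genes 0.05). At day 0, where 22 passed, 5 were lower (Tnnt1, Tnnt2, Tnni2, Musk and Chrng) and 2 higher (Tnnc2 and Myl4). Examples are Tnnt3, fast troponin T, which went from 5026 to 532 FPKM at day 6, from 2951 to 339 FPKM at day 8 and from 1675 to 493 FPKM with USP10. Myh3, embryonic myosin heavy chain, went from 616 to 86.2 FPKM, from 1218 to 45.4 FPKM and from 676 to 72.9 FPKM. The targets still rose in the knockdown cells, across tables normalized separately. From day 0 to day 6, 35 of 35 expressed targets were at least 2-fold higher there (median log2 ratio 7.17), beside 19.1% of all genes. In the controls 37 of 37 were (median 9.49), beside 21.5% of all genes. The 37 targets did not all differ alike at day 6, since Cdh15 (M-cadherin) was at 121 FPKM in both columns of the Huwe1 table and Itga7 at 325 FPKM without and 308 FPKM with the knockdown. The largest decreases were those of Cdkn1c at day 6 (8.56 to 0.0400 FPKM), Myh3 at day 8, Fgfr4 with USP10 (9.97 to 0.134 FPKM) and Tnnt1 at day 0 (2.58 to 0.616 FPKM), and the furthest increases those of Rapsn at day 6 (42.2 to 50.7 FPKM) and day 8 (60.7 to 123 FPKM), Cdh15 with USP10 (35.9 to 55.6 FPKM) and Tnnc2 at day 0 (0.257 to 1.33 FPKM). The control columns of day 6 differed here too: 21 of the same 37 targets were at least 2-fold lower in the control of the USP10 table, and none higher.

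**Figure D4:**
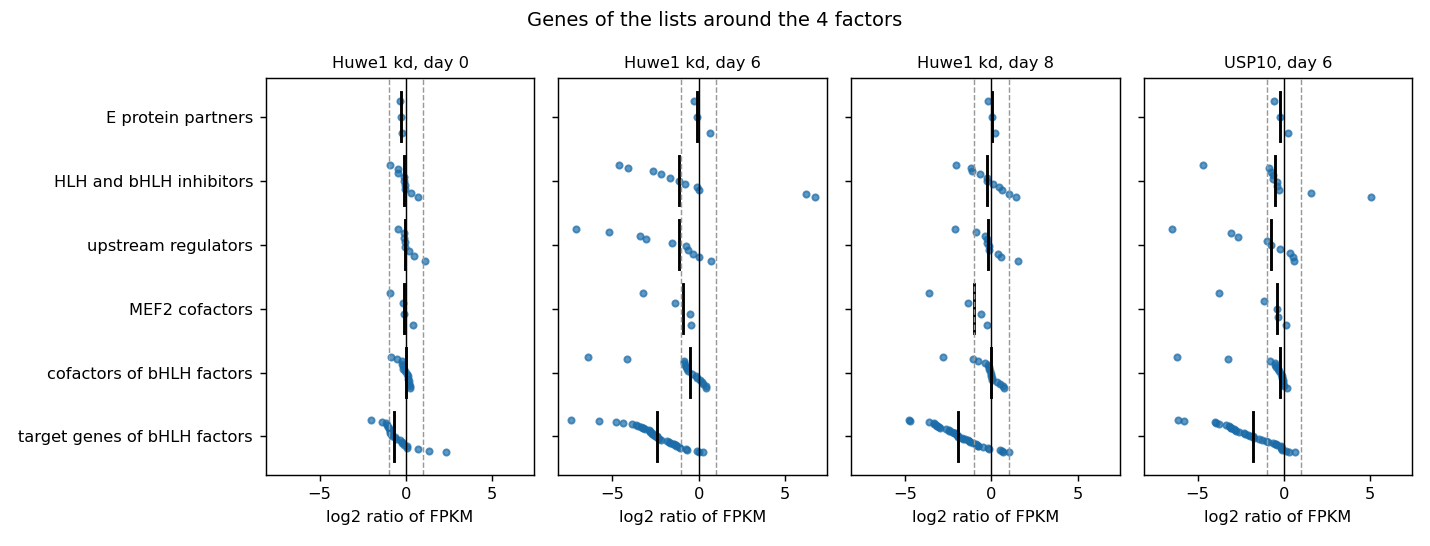
Log2 ratio of treated to control FPKM for the expressed genes (points) of 6 lists around the factors, with the list median as a black bar and dashed lines at 2-fold, in 4 panels for the 4 comparisons. The target genes lie mostly left of -1 in the day 6, day 8 and USP10 panels (medians -2.42, -1.93 and -1.79), and all 3 E proteins lie between the dashed lines in every panel.

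Genes listed as markers of other cell types differed in the day 6 comparisons. Control myoblasts at day 0 already held 144 FPKM of Col1a1 and 653 of Col1a2, but only 1.27 of Dcn and 0 of Lum. By day 6 Col1a1 and Col1a2 fell to 4.61 and 42.1 FPKM in the control. In the knockdown cells they went from 118 to 107 and from 351 to 409 FPKM. There 4 of 6 expressed fibroblast markers rose past 2-fold from day 0 to day 6, beside 19.1% of all genes. All 6 expressed fibroblast markers of 8 were at least 2-fold higher in the day 6 knockdown, with a summed level of 4199 against 163 FPKM. With USP10, 3 of 6 were higher (Dcn, Lum and Col1a2), with a sum of 3874 against 573 FPKM, and most of both sums was decorin (Dcn), which went from 7.94 to 2987 FPKM with the knockdown and from 50.3 to 3037 FPKM with USP10. At day 8 the sum was 1013 FPKM with the knockdown and 731 FPKM without it, with Dcn (4.19 to 8.75 FPKM) and Pdgfra (1.95 to 7.74 FPKM) higher, and at day 0 it was 581 FPKM with and 970 FPKM without, with Dcn (1.27 to 4.42 FPKM) higher. Thy1 was listed at 0 in 6 of the 8 columns and stayed below 0.08 FPKM, and Lum was at 0 in the day 0 and day 8 controls. Of 8 satellite and reserve cell markers, Cd34 went from 1.59 to 145 FPKM at day 6 and from 27.8 to 93.2 FPKM with USP10; Pax7, Spry1, Hey1 and Heyl were 2-fold lower at day 6, Spry1 and Hey1 at day 8 with Vcam1 higher (47.8 to 130 FPKM), and Pax7 and Heyl with USP10. Their summed level ranged from 131 to 208 FPKM in the controls and from 166 to 266 FPKM in the treated columns, and Calcr was listed at 0 in all 8 columns. Other cell types had 8 markers with sums of 1.82 to 76.2 FPKM in the controls and 2.75 to 57.8 FPKM in the treated columns. The highest sums, at day 0, were mostly the neuronal tubulin Tubb3 (61.8 FPKM in the control) and the endothelial cadherin Cdh5 (13.5 FPKM), and the lowest, in the day 6 control and the day 8 knockdown, mostly the macrophage gene Cd68. Tubb3 and Cdh5 were 2-fold higher in the day 6 knockdown and with USP10, where Cd68 and Krt8 were lower, and at day 8 Tubb3 was lower and Cd68 higher. The proliferation markers were higher in the day 6 knockdown (Mki67, Top2a, Ccnb1, Ccna2 and Cdk1 of 7, sum 87.4 against 63.8 FPKM), and 0 of 7 differed by 2-fold with USP10 (106 against 87.0 FPKM) or at day 0 (939 against 821 FPKM). Whether any of these markers came from other cells, and what part such cells had in the factor values, was not tested. In such bulk RNA, fewer cells expressing a factor and less RNA per cell cannot be told apart. Of 16 housekeeping genes, 0, 1, 0 and 1 differed by 2-fold in the 4 comparisons, namely Actb at day 6 (226 to 860 FPKM) and Polr2a with USP10 (383 to 1226 FPKM).

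The genes whose pattern was most like that of each factor were found by Pearson's r of log2(FPKM + 1) over the 8 columns, among 8371 genes that reached 10 FPKM in any column. These values describe 8 columns, several of which share cell stocks or, by name, a control library, and carry no p. For Myog they were Trim54, Neb and Trim63, each with r of 0.997, and Neb, the thin filament ruler nebulin, went from 397 FPKM in the day 6 control to 30.2 in the knockdown and from 188 to 17.5 FPKM with USP10. For Myod1 they were Cdk5rap3 (0.989), Synpo2l (0.986) and Ube2h (0.986). For Myf5 they were Cask (0.976), 2210016L21Rik (0.967) and Ifitm2 (0.965), and Cask went from 5.57 to 18.5 FPKM at day 6 and from 6.11 to 15.6 FPKM with USP10. For Myf6 they were Reep6 (0.956), Med25 (0.940) and Ripply1 (0.939), and Ripply1, listed at 0 at day 0, went from 6.41 to 0.143 FPKM with the day 6 knockdown and from 16.2 to 0.208 FPKM with USP10. Which genes came first depended on the settings: with the 6 columns of the Huwe1 tables, 1 of 3 genes was shared for Myod1 and for Myog and 0 for Myf5 and Myf6.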

How the data were processed

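The 10 labelled samples of C2C12 mRNA (oligo(dT) selection, ScriptSeq v2 libraries, Illumina sequencing) underlie 4 tables. The authors mapped reads with Tophat and compared groups with Cuffdiff; the submitters' processing notes name Bowtie2 and build mm10, and versions are not given in the sources used here. The deposited values are FPKM per gene, 1 per condition and normalized within each table, with knockdown samples pooled. The authors' log2 fold change, test statistic, p-value and q-value columns were not used.

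Log2 ratios and the folds taken from them were computed after adding 0.01 FPKM, which understates the change of low genes. Counting intervals, and the day 6 against day 0 folds of the controls printed with them, used FPKM with nothing added. Genes that reached 1 FPKM in one column or the other were counted, whatever their test status, and called at 2-fold. The columns used hold 1 pooled value per condition and no replicate values, so no test was run. Shares and ratios of factors were taken within a column. Fragment numbers were estimated from the steps of low values in genes with a single GENCODE transcript of at least 1500 bases (97.3% to 98.8% of low values lay within 0.2 of a whole number of fragments), and intervals are exact (Poisson, or Clopper-Pearson for ratios, 95%), covering counting error only. Named genes were the factors, Huwe1, Usp10, the 3 genes most like each factor, the largest decrease and increase of a list, E protein and Id genes, and all genes of counts up to 5; Dcn, Tubb3, Cdh5, Cd34, Mki67, Tnnt3, Itga7, Cdh15, Des and the other genes named with values in the text were otherwise chosen after their values were seen. The members and lists were chosen with earlier results of these data known, and 1 listed cofactor, Zfp238, was not matched in the tables. Scripts used Python 3.11.15, numpy 2.4.6, pandas 2.3.3, scipy 1.17.1 and matplotlib 3.10.9, and were tested on simulated data. Alternatives were pseudocounts of 0.1 and 1, other minimums, centring, shares of fragments and the other day 6 control. Promoters came from RefSeq, which matched Myog and Myf5 among the 4 factors.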

Additional observations from a re-analysis of the deposited data

Results flagged for a closer look

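The Huwe1 knockdown went with opposite directions at different days for Myf5 and for 3 Id genes, and these differences were not tested, since each day has 1 value per condition. Myf5 had a log2 ratio of -0.51 at day 0 and 2.39 at day 6, a difference of 2.90. Id2 had 0.69 at day 0, -2.67 at day 6 and 0.60 at day 8, so that its difference was -3.36 from day 0 to day 6 and 3.27 from day 6 to day 8. Id1 went from -1.68 at day 6 to 1.00 at day 8, a difference of 2.68, and Id3 from -1.15 to 1.43, a difference of 2.58. Hairpins by the labels, controls and, by the study's methods, the time of infection (growing myoblasts, or myotubes on day 4) differ between day 6 and day 8, so these and the day cannot be told apart. Ratios under 0.5 in size were not considered. No group had enough separate values to look for an outlying sample.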

How the results depend on the processing

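Of the 16 log2 ratios of the factors within a table, 10 reached 2-fold, and they did so in all 40 alternatives with another pseudocount or centring; 62 of 64 alternatives over the 16 ratios kept the sign. With a pseudocount of 1, the log2 ratio of Myf6 was -1.29 at day 6, -1.09 at day 8 and -2.21 with USP10. The same pseudocount gave day 6 against day 0 ratios of 9.06 (Myog) and 1.55 (Myf6) in controls and 4.61 and 0.31 in the knockdown, and -0.34 for Myf6 between the knockdowns of day 6 and day 8. Centring on the housekeeping genes gave day 6 against day 0 ratios of 3.83 (Myod1), 12.79 (Myog), -0.84 (Myf5) and 4.58 (Myf6) in controls and 3.67, 8.30, 1.99 and 2.36 in the knockdown. Exchanging the day 6 controls, chosen after seeing the data, gave -0.41 (Myod1), -3.49 (Myog) and -3.48 (Myf6) for the Huwe1 knockdown and -1.62, -4.42 and -3.10 for USP10; the Myf5 ratios of 1.95 and 2.52 moved by less than the spread between the controls.

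Counts of genes at least 2-fold lower and higher changed by over 1.5 times under some minimums. At day 0 they were 184 and 207, and with at least 5 FPKM 90 and 117, with 1 FPKM in both columns 106 and 91, without a minimum 953 and 1710, and with a pseudocount of 1 88 and 124. At day 6 they were 1571 and 2061; the higher count was 1357 with 5 FPKM and 1284 with 1 FPKM in both, and without a minimum they were 3141 and 3937. At day 8 they were 1180 and 928, with 5 FPKM 771 and 502, with 1 FPKM in both 783 and 544, without a minimum 3640 and 2408, and the higher count with a pseudocount of 1 was 545. With USP10 they were 1153 and 1114, with 5 FPKM 658 and 740, with 1 FPKM in both 669 and 741, and without a minimum 2880 and 2983. For the 2 day 6 controls they were 992 and 1284, with 5 FPKM 634 and 738, with 1 FPKM in both 649 and 780, and without a minimum 2828 and 3010. For control day 6 against day 0 the higher count of 2511 became 1561 with 1 FPKM in both and 4733 without a minimum. Of 32 factor shares, 12 moved by more than the 2.79 percentage points between the controls when computed from fragments, and of 176 list counts 20 changed by over 1.5 times, all between small numbers of genes. No paired analysis was possible because the tables pool the knockdown samples in 1 column, and for the same reason no sample could be left out. Depth limits Myog and Myf6 at day 0 and Myf6 in the treated columns, where values rest on few fragments.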
